A study of Homo sapiens with 6 samples.

Results

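Thymidine glycol (Tg) sites found only in cells lacking both NTHL1 and NEIL1, but close to a place that also carried a site in wild-type cells, are described here. A site belonged to this set when it was listed for the double knockout on chromosomes 1 to 22 or X, shared no base with any wild-type site, and had its midpoint within 100 kb of the midpoint of a wild-type site. The sites were thus chosen by the presence of a call in one list, its absence in the other and the distance between calls. The rule selected 2663 of the 9373 double-knockout sites (28.4%, exact binomial 95% interval 27.5% to 29.3%), or 2663 of the 6680 double-knockout-only sites on those chromosomes (39.9%). The other 4017 double-knockout-only sites lay farther than 100 kb from any wild-type site, and 2597 double-knockout sites on the same chromosomes were shared with wild type. They are called the neighbouring, the distant and the shared sites below.

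The double-knockout cells are HEK293T cells of genotype NTHL1-/-,NEIL1-/-, and their reference is wild-type HEK293T, a line derived from human embryonic kidney cells and expressing SV40 large T antigen; the labels name no treatment of the living cells. Each genotype had 2 libraries labelled with NTHL1 protein (DPC-Seq) and 1 input library, and 1 deposited list of sites. Neither the way the knockout line was made nor whether it is 1 clone is stated in the labels used here. Lists of DNA sites hold no expression, so the cell type could not be checked against marker genes. NTHL1 itself held 5 shared sites in the double-knockout list and 5 sites in the wild-type list, with no neighbouring site, and NEIL1 held no site in either list.

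Tg forms when the 5,6 double bond of thymine is oxidised, and the lesion blocks many DNA polymerases. NTHL1 and NEIL1 are bifunctional DNA glycosylases: they cut the damaged base out and nick the strand, which opens base excision repair. DPC-Seq uses the same chemistry as a label, since the NTHL1 enzyme added to purified DNA is trapped on the strand at the lesion by a reducing agent.

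Only a few neighbouring sites reached an annotated transcription start, and the sequences of those starts are shown because start windows were the reference sequence used here. Of the 2581 neighbouring sites on the chromosomes whose start windows were used here, 17 (0.659%, 0.384% to 1.05%) touched a window of 250 bases before to 50 bases after a start, against 0.774% of distant, 0.955% of shared and 0.884% of wild-type sites. These 17 windows belonged to 9 long non-coding RNA genes and 8 protein-coding genes. The 4 with the most bases inside a site are given 5′ to 3′ on the strand of the gene, from RefSeq on GRCh38.p14, with the bases inside the site in capitals; they were chosen after their values were seen. The windows are chr12:115012892-115013191 (plus strand) for LOC102723639, chr19:50488844-50489143 (minus strand) for MYREM, chr5:176659973-176660272 (plus strand) for LOC124901144, and chr1:182672189-182672488 (minus strand) for RGS8, which encodes a regulator of G protein signalling.
LOC102723639: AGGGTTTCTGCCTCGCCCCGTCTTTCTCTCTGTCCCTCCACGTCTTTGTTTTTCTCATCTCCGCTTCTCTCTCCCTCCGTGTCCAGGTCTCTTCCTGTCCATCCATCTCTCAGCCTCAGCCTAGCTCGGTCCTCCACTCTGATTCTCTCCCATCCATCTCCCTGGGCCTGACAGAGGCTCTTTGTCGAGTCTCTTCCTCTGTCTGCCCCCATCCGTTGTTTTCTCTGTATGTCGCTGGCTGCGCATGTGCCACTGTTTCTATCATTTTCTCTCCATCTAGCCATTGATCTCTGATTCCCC
MYREM: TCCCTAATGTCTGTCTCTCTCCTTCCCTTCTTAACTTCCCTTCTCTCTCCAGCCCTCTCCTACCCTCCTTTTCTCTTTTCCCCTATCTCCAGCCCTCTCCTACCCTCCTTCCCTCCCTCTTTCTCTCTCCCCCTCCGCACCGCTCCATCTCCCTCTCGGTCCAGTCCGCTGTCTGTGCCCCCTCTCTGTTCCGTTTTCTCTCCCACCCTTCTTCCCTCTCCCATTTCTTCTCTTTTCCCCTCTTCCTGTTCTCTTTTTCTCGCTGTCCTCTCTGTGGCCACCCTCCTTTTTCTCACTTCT
LOC124901144: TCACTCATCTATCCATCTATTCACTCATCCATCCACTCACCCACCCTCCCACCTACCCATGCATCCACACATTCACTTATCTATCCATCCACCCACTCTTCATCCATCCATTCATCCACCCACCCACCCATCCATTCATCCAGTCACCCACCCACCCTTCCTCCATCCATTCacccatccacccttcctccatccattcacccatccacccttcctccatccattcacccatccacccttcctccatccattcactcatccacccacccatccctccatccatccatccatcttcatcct
RGS8: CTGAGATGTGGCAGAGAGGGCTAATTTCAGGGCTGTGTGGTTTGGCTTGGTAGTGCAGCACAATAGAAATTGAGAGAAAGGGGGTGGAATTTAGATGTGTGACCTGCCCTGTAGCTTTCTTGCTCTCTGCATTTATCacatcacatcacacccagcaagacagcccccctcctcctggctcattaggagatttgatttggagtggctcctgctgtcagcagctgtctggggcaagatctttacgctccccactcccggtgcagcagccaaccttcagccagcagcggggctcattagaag

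The first 3 of these windows were lopsided between the strands. Pyrimidines made up 74.7% of the LOC102723639 window, 87.7% of the MYREM window and 77.7% of the LOC124901144 window, and 50.7% of the RGS8 window. MYREM held an unbroken run of 34 pyrimidines. LOC124901144 held the 4 letters ATCC 24 times, and the 8 letters ATCCATCC 5 times in overlapping matches. That word was picked from this window, and on either strand (ATCCATCC or GGATGGAT) it occurred in 0.689% of all 35116 windows. Counting whichever of purines or pyrimidines was commoner, the 17 windows had a median of 61.3%, with 10 of them at 60% or more (58.8%, 32.9% to 81.6%). The median was 62.2% in 34 windows touched by distant sites, 55.7% in 27 windows touched by shared sites and 54% in all windows. Windows at 60% or more made up 67.6% of those touched by distant sites, 37.0% of those touched by shared sites and 11.1% of all. Composition was counted over the whole window of 300 bases. A site covered from 9 of them (NFKBID) to all 300 (MYREM), so these values describe windows and not the sites. Thymine made up 9% to 40% of the 17 windows, median 23.3%, against a median of 20.7% in all windows. The letters GGGCGG or CCGCCC, the core of a GC box, were in 3 of the 17 windows (17.6%, 3.80% to 43.4%) and in 44.95% of all windows. Thymine and GC boxes were not counted in windows touched by distant, shared or wild-type sites. Whether these values are particular to the set was therefore not tested. Windows of neighbouring genes can overlap and sites are not replicates, so these shares are descriptions with counting intervals.

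The sites at these 4 starts ranged widely in strength. The fold enrichment of a site is the deposited ratio between the summit reads and the background that the peak caller took, and its reads were recovered from that fold and the deposited p. The RGS8 site (chromosome 1, 182672352 to 182672759) had a fold of 8.45 from 31 reads, which tied with the tenth-ranked neighbouring site on q. The LOC124901144 site had a fold of 5.71 from 32 reads, the LOC102723639 site 5.28 from 19 reads and the MYREM site 3.71 from 16 reads. The summit of the site lay inside the window for LOC102723639 and MYREM and outside it for the other 2.

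Neighbouring sites were weak as a class, close to the distant sites and well below the shared ones. Their fold had a median of 4.64 (quartiles 3.92 and 5.49, range 2.05 to 11.9), against medians of 4.75 for distant and 5.73 for shared sites. Reads at the summit had a median of 16 (range 7 to 50), against 15 for distant and 23 for shared sites. The median −log10 q was 5.20 for neighbouring, 5.03 for distant and 9.30 for shared sites. Among 4 equal groups of the double-knockout list by q, 14.6% of neighbouring sites (13.3% to 16.0%) were in the group of lowest q, against 13.2% of distant and 53.9% of shared sites. Neighbouring sites were also narrow, with a median width of 376 bp against 358 bp and 593 bp, and 49 of them (1.84%) were at least 1 kb wide, against 17.3% of shared sites. The background at their summits was intermediate, with a median of 2.79 reads against 2.36 for distant and 3.19 for shared sites. Since absence from the wild-type list chose the neighbouring and the distant sites, these strengths are a description.

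**Figure D1:**
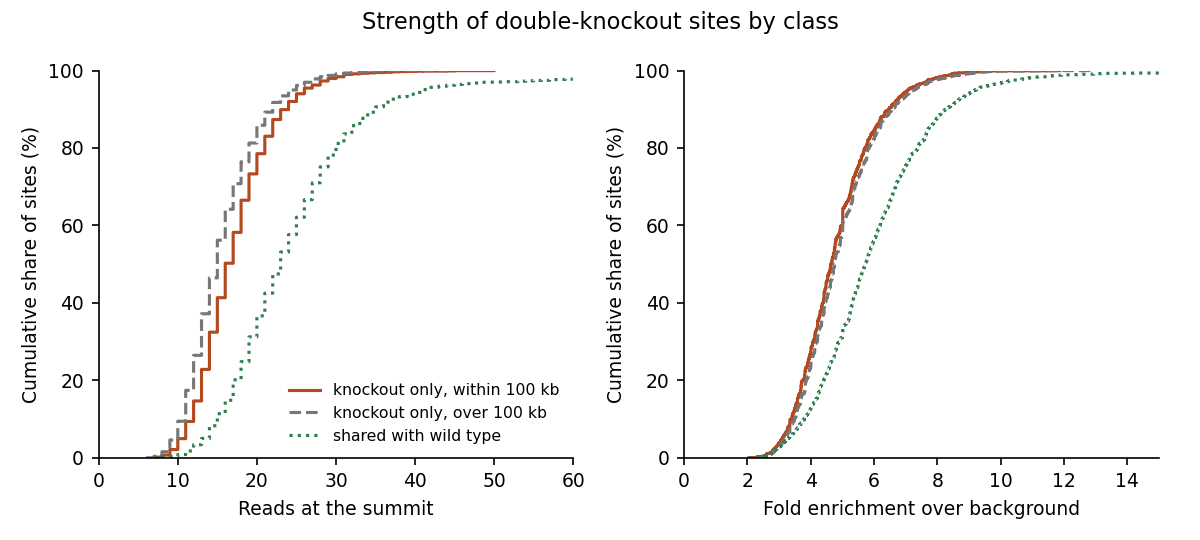
Cumulative share of double-knockout sites (vertical axis, percent) by reads at the summit (left) and by fold enrichment over background (right), for 2663 neighbouring, 4017 distant and 2597 shared sites; the axes stop at 60 reads and a fold of 15. The curves of neighbouring and distant sites nearly coincide for fold, with medians of 4.64 and 4.75, and the shared sites lie to the right, with a median of 5.73.

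The depth of the libraries behind each list is unknown, and the lowest background in a list was taken as a stand-in for it. It was 1.25 reads in the double-knockout list and 0.739 in the wild-type list, a ratio of 1.69, or 1.61 per base pair of the narrowest site. When the reads and background of each neighbouring site were divided by 1.69, 2202 of 2663 (82.7%, 81.2% to 84.1%) still reached the lowest −log10 p of the wild-type list, 3.79. Of all double-knockout sites on these chromosomes 85.9% did so, of distant sites 81.7% and of shared sites 95.7%. With the ratio per base pair, 85.0% of neighbouring sites and 87.4% of all double-knockout sites did. A stricter limit was the lower quartile of −log10 p in the wild-type list, 6.79. At that limit 626 neighbouring sites (23.5%, 21.9% to 25.2%) passed, against 21.0% of distant sites, 65.2% of shared sites and 34.1% of all double-knockout sites. Absence from the wild-type list was part of the choice, so nothing is read from these shares. The wild-type list gives no value at a place without a site, so how many reads wild-type cells had there is not known, and a difference in depth and a difference between genotypes cannot be told apart for a single site.

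Double-knockout-only sites became denser the nearer a wild-type site was. Territory within 100 kb of a wild-type midpoint covered 467 Mb, 15.4% of the annotated span of these chromosomes, and held 5.70 double-knockout-only sites per Mb, against 1.57 per Mb in the remaining 2562 Mb. The ratio was 3.64 (exact counting interval 3.46 to 3.82). Density was 17.2 sites per Mb within 1 kb (119 sites), 19.1 between 1 and 2 kb (126 sites) and 8.72 between 2 and 5 kb. It was 6.18 between 10 and 25 kb, 4.34 between 50 and 100 kb, 3.45 between 100 and 200 kb, and 1.59 between 500 and 1000 kb. The gradient therefore ran on past the 100 kb limit without a step. The 1 kb shell is understated, because a double-knockout-only site there cannot overlap the wild-type site.

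Other wild-type sites were denser still within 2 kb of a wild-type site. These counts are not alike, since double-knockout-only sites leave out by rule the 2597 that overlap a wild-type site. No wild-type site was left out in that way, and how much of the difference this makes was not tested. The density of other wild-type sites was 49.6 per Mb within 1 kb of a wild-type midpoint (344 sites, each counted by its nearest other wild-type site) and 27.0 per Mb between 1 and 2 kb. Relative to the mean of the genome, the shells within 1 kb and from 1 to 2 kb held 7.79 and 8.67 times as many double-knockout-only sites, and 41.6 and 22.6 times as many other wild-type sites. From 50 to 100 kb these multiples were close, 1.97 for double-knockout-only and 1.89 for other wild-type sites. No correction was made for the uneven chromosome copy number of this line. The sites of 1 list are not independent, so the intervals cover counting error only.

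**Figure D2:**
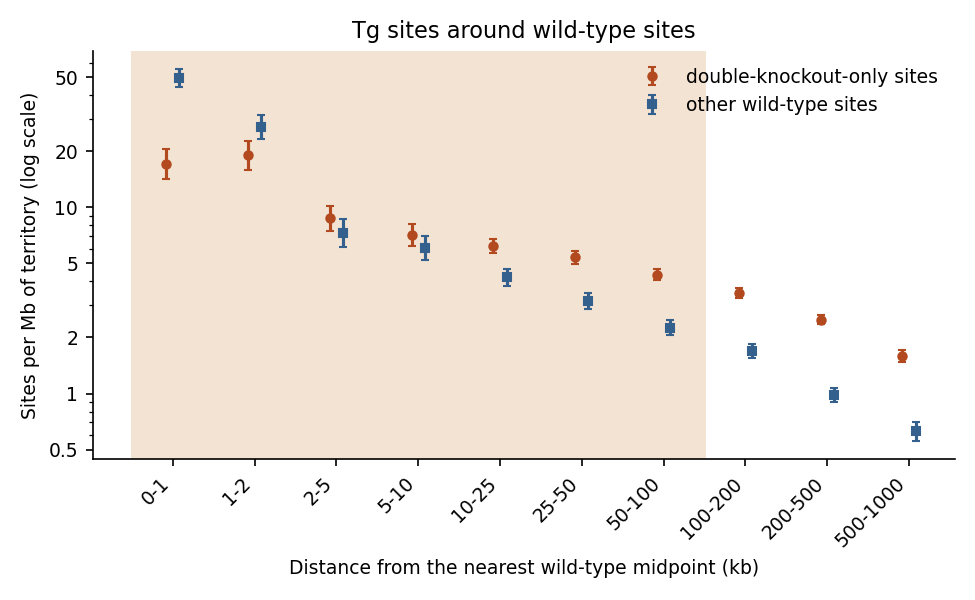
Sites per Mb of territory (vertical axis, log scale) in shells of distance from the nearest wild-type midpoint (horizontal axis, kb), for double-knockout-only sites (circles) and other wild-type sites (squares), with exact Poisson 95% intervals; the shaded shells hold the neighbouring sites. Double-knockout-only density is 19.1 per Mb at 1 to 2 kb and 4.34 per Mb at 50 to 100 kb, with no step at 100 kb.

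The distances themselves had a median of 31.3 kb, with quartiles of 10.8 and 58.8 kb. Only 188 neighbouring sites (7.06%, 6.12% to 8.10%) lay within 1 kb of a wild-type site edge to edge, and 10 of them within 100 bp. Strength hardly followed distance. The 245 neighbouring sites within 2 kb had a median of 18 reads and a fold of 4.65, and the 862 sites between 50 and 100 kb had 16 reads and 4.68. Across the 2663 sites distance had a Spearman correlation of −0.11 with reads, −0.12 with background and 0.03 with fold (Pearson −0.09, −0.11 and 0.03), all measured in the same libraries. With reads and background divided by 1.69, the share that reached the lowest wild-type −log10 p was 82.5% within 10 kb. It was 82.7% from 10 to 50 kb and 82.8% from 50 to 100 kb.

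The closest pairs were sites that nearly touched. On chromosome 3 a 1207 bp double-knockout site inside LINC00620 (13704550 to 13705756, fold 5.25, 21 reads) ended 6 bp before a wild-type site (fold 5.19, 11 reads). At ZNF471, a zinc finger gene on chromosome 19, a double-knockout site at 56508209 to 56508552 (fold 5.22, 17 reads) lay 13 bp from a wild-type site (fold 5.36, 11 reads). On chromosome 11 near ZNF195 the gap was 24 bp, with 16 reads in the double knockout and 9 reads in wild type. On chromosome 8 in XKR5 and on chromosome X near SCML1 the gap was 33 bp each, with 10 and 23 reads in the double knockout and 11 and 9 reads in wild type. In 4 of these 5 pairs, all but the one near SCML1, the wild-type site was itself missing from the double-knockout list, so that each genotype listed its own site at almost the same place. Among all 245 neighbouring sites within 2 kb, the nearest wild-type site was shared for 76.3%. The 5 pairs were picked by their small gaps, so nothing is read from their count.

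At the other end of the range, the sites just inside and just outside the limit had overlapping folds. Just inside lay a site in PCDH1, a protocadherin gene on chromosome 5 (99.95 kb away, fold 5.65), one in DPP6 on chromosome 7 (99.83 kb, fold 3.74) and one between genes on chromosome 7 (99.78 kb, fold 6.57). Just outside lay sites near SH3D21 on chromosome 1 (100.1 kb, fold 4.72), in HSPBP1 on chromosome 19 (100.2 kb, fold 4.93) and in RNF213-AS1 on chromosome 17 (100.2 kb, fold 3.27).

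Most neighbouring sites stood beside a wild-type site that both genotypes shared. The nearest wild-type site was shared with the double knockout for 2017 of 2663 (75.7%, 74.1% to 77.4%), close to the 75.1% of all wild-type sites that were shared. For distant sites this share was 66.3% (64.8% to 67.8%). By distance it ran from 74.7% at 50 to 100 kb to 76.8% at 25 to 50 kb. Neighbouring sites had a median of 16 reads in the double-knockout list, and their nearest wild-type sites a median of 13 reads in the wild-type list. Divided by 1.69, the median of the neighbouring sites was 9.45 reads, and 2147 of 2663 (80.6%) were below the nearest wild-type site, or 76.8% with the ratio per base pair. The order of these medians thus turns with the division, and the rule required a wild-type call of the one site and none of the other, so these values are a description.

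Neighbouring sites were spread over many wild-type sites rather than gathered at a few. In all, 1665 of 3618 wild-type sites (46.0%) were the nearest one of at least 1 neighbouring site. Of these, 1021 had 1, 411 had 2, 154 had 3, and 79 had 4 to 8. Exactly 1 wild-type site lay within 100 kb for 54.2% of neighbouring sites, and 24.5% had a wild-type site within 100 kb on both sides. Neighbouring sites also lay close to other double-knockout sites, at a median of 20.6 kb from the nearest one, against 26.6 kb for shared and 103 kb for distant sites. The rule largely sets this order, since most wild-type sites are shared and distant sites are over 100 kb from all of them. Another neighbouring site lay within 10 kb for 20.3% of them.

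The wild-type site with the most neighbouring sites was on chromosome 6 (160790386 to 160790659, fold 4.02, 9 reads), with PLG, the plasminogen gene, as the nearest protein-coding gene. Its 8 neighbouring sites all lay on 1 side, 50.8 to 66.7 kb away, in a run of 16.4 kb (160841214 to 160857578) in annotation that does not code for protein. Their folds were 2.83, 2.77, 6.75, 3.58, 2.83, 3.10, 5.55 and 5.19 in the order of position, from 12, 15, 20, 14, 12, 12, 16 and 19 reads. Only 3 of the 8 had a fold above 5. The run held no wild-type site.

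Among the 10 neighbouring sites of lowest q, 9 are described here; the one left out had the lowest q and the highest fold of the set and is not reported. A site in ZNF778, a zinc finger gene on chromosome 16 (89221453 to 89221962), had a fold of 11.5 from 35 reads (exact Poisson interval 24.4 to 48.7) and lay 82.8 kb from a wild-type site with a fold of 5.57 from 17 reads. One in FHOD3 on chromosome 18 (36476965 to 36477349) had a fold of 8.55 from 45 reads. They ranked 94 and 98 in the whole double-knockout list by q.

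The other 7 had folds of 7.82 to 9.71 and 28 to 38 reads. In genes lay sites in ARNT2, a transcription factor of the bHLH-PAS family (chromosome 15, fold 9.71), in NXN, the redox protein nucleoredoxin (chromosome 17, fold 8.37), and in ZNF407 (chromosome 18, fold 9.69). Outside protein-coding genes lay sites 15.8 kb from DUSP1, a phosphatase of MAP kinases (chromosome 5, fold 7.82), 4.87 kb from ENDOV, which encodes an endonuclease that cleaves at inosine (chromosome 17, fold 9.31), 158 kb from AJAP1 (chromosome 1, fold 9.55), and 10.8 kb from MAB21L3 (chromosome 1, fold 8.45). The nearest wild-type site was shared with the double knockout for each of these 9, and the site left out is not counted here. Over the whole set this share was 75.7%, so nothing particular to the strongest sites is read from it.

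Neighbouring sites took an uneven share of the chromosomes. Chromosome 1 held 384 of them (14.4% of the set), chromosome 19 held 270 (10.1%), and chromosomes 13 and 14 held 33 and 40. Of all double-knockout sites on these chromosomes, chromosome 1 held 12.1%, chromosome 19 held 6.55%, and chromosomes 13 and 14 held 2.296% and 2.15%. Of wild-type sites, chromosome 1 held 10.9% and chromosome 19 held 6.27%. Much of the share of chromosome 1 was therefore not particular to the neighbouring sites. Per wild-type site, chromosome 19 had 1.19 neighbouring sites, chromosome 15 had 0.978, chromosome 1 had 0.972 and chromosome X had 0.932, whereas chromosome 13 had 0.398 and chromosome 9 had 0.442. On chromosome 19, 61.2% of double-knockout-only sites were neighbouring, and on chromosome 13, 20.6%. Territory near wild-type sites covered 43.5% of chromosome 19 and 10.6% of chromosome 13, so these shares follow in part from the rule. Within the near territory itself chromosome 19 had 10.6 sites per Mb and chromosome 13 had 2.72.

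The excess near wild-type sites was present on each of the 23 chromosomes. The ratio of density within 100 kb to density beyond was lowest on chromosome 20 (1.801, from 5.68 and 3.16 per Mb) and highest on chromosome 4 (6.67, from 4.32 and 0.648 per Mb), with a median of 3.33. It was also present at each level of gene density. In 1 Mb windows without a protein-coding gene midpoint the ratio was 8.16 (6.08 to 10.8), from 3.34 and 0.409 sites per Mb. In windows with 3 to 5 genes it was 2.96 (2.63 to 3.32), and in windows with over 10 genes 2.35 (2.16 to 2.55), from 7.00 and 2.98 sites per Mb. The territory includes long gene-free stretches, and whether sites could be called throughout them was not tested. Without those over 2 Mb the ratio over all chromosomes was 3.39. It was not recomputed for each chromosome or for each level of gene density. Any part where no site can be called would add mostly to the territory beyond 100 kb and raise the ratio.

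**Figure D3:**
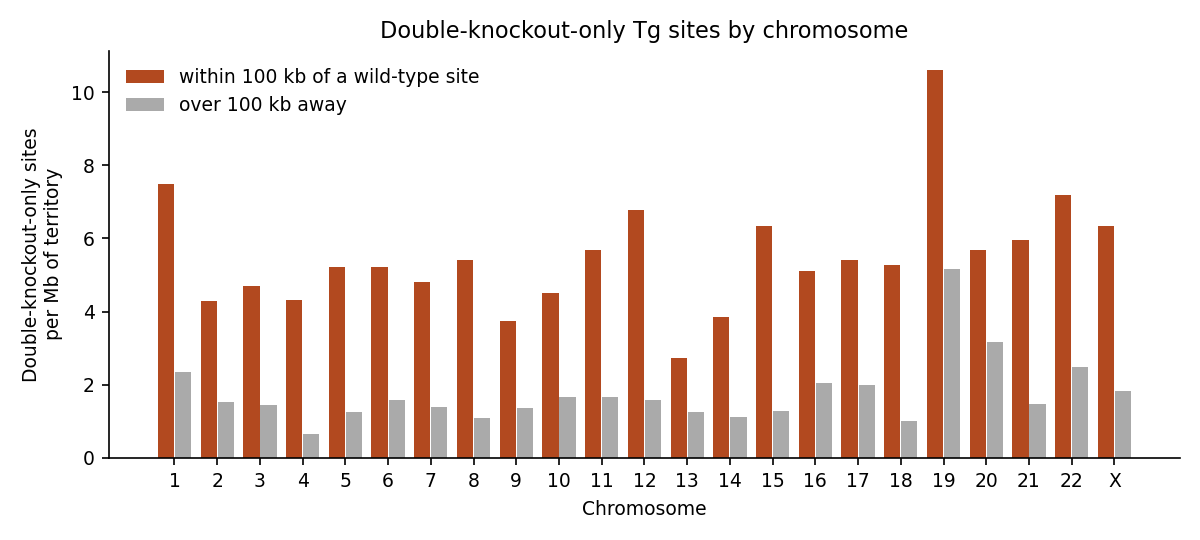
Double-knockout-only sites per Mb of territory (vertical axis) on each chromosome (horizontal axis), within 100 kb of a wild-type midpoint (left bars) and farther away (right bars). The left bar is the higher on all 23 chromosomes, from 1.801 times on chromosome 20 to 6.67 times on chromosome 4.

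The share of neighbouring sites near chromosome ends lay between those of distant and wild-type sites. The rule largely sets this order, since neighbouring sites lie within 100 kb of a wild-type site and distant sites do not. The end regions were the 5 Mb inside the first and last annotated feature of a chromosome, and they held 631 of 2663 (23.7%, 22.1% to 25.4%), against 7.17% of distant sites (6.39% to 8.01%), 30.3% of shared sites and 27.2% of wild-type sites. The near territory itself lay within these end regions for 20.3% of its length, against 7.59% of the whole span. Per Mb of near territory, there were 6.67 neighbouring sites in the end regions and 5.46 inside.

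Relative to genes, the set did not stand out. The midpoint lay in the body of a protein-coding gene for 1295 of 2663 neighbouring sites (48.6%, 46.7% to 50.5%), against 48.4% of distant, 46.6% of shared and 46.0% of wild-type sites. Within 1 kb of an end of such a gene lay 98 (3.68%), against 3.56%, 3.20% and 3.18% in the same order. Intergenic sites made up 38.2% (36.4% to 40.1%), against 37.1% of distant, 40.6% of shared and 40.7% of wild-type sites. Of the 1295 neighbouring sites in a gene, 789 (60.9%) had their nearest wild-type site in that same gene.

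A neighbouring site was present in 896 of 19974 protein-coding genes (4.49%): 644 held 1, 166 held 2 and 86 held at least 3. Of the 896, 478 also held a wild-type site and 418 did not. Genes with a neighbouring site were long, with a median of 65.4 kb against 24.2 kb for all protein-coding genes. Long genes offer more room for sites of any class, and the length of genes with distant, shared or wild-type sites was not measured.

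PTPRN2, a gene of the receptor-type tyrosine phosphatase family whose product sits in secretory vesicles (chromosome 7, 157539056 to 158587823), held the most neighbouring sites. Its 29 double-knockout sites consisted of 12 neighbouring and 17 shared ones, beside 24 wild-type sites. The 12 lay 0.802 to 19.4 kb from 11 different wild-type sites, all inside the gene, with folds of 2.97 to 6.82 (median 4.88) and 14 to 26 reads. They were thus interleaved with a dense row of wild-type sites.

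SORCS2 and FHOD3 had the opposite layout, with many neighbouring sites around few wild-type sites. SORCS2, a receptor gene of the sortilin family (chromosome 4, 7192538 to 7742827), held 10 neighbouring, 3 shared and 1 distant double-knockout site, beside 3 wild-type sites. The 10 had folds of 2.63 to 7.91 (median 4.17), 10 to 19 reads, and distances of 1.49 to 84.5 kb. Of these, 6 shared the wild-type site at 7387696 to 7388083 (fold 4.64, 14 reads) as their nearest.

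FHOD3 encodes a formin that organises actin in heart muscle (chromosome 18, 36297713 to 36780220). It held 9 neighbouring, 1 shared and 4 distant double-knockout sites, beside 1 wild-type site. The 9 had folds of 4.14, 4.41, 3.63, 2.72, 3.34, 8.55, 4.80, 4.40 and 6.21 in the order of position, from 18, 21, 20, 18, 21, 45, 21, 20 and 25 reads. A single one, with 45 reads, stood apart from the others, which had 18 to 25. For 5 of them the nearest wild-type site was the one in the gene (fold 7.18, 17 reads), and for the other 4 it lay outside the gene.

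**Figure D4:**
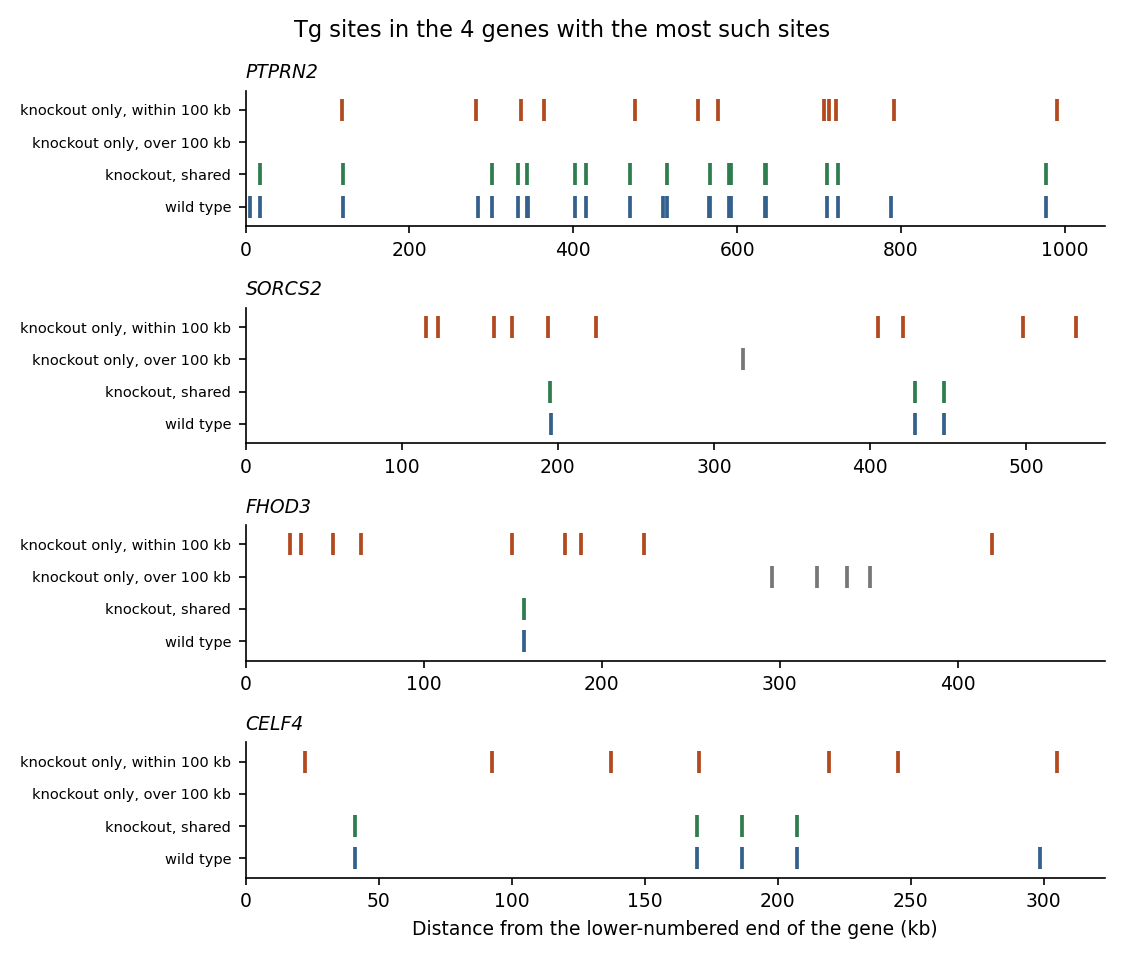
Positions of Tg sites in PTPRN2, SORCS2, FHOD3 and CELF4 (horizontal axis, kb from the lower-numbered end of each gene), with 1 row each for neighbouring, distant and shared double-knockout sites and for wild-type sites. PTPRN2 has 12 neighbouring sites among 24 wild-type sites, and FHOD3 has 9 neighbouring sites around 1 wild-type site.

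CELF4, which encodes an RNA-binding splicing regulator of neurons, held 7 neighbouring sites at 0.677 to 51.3 kb, with folds of 3.80 to 5.38 and 19 to 28 reads, beside 5 wild-type sites. ADARB2, of the RNA-editing deaminase family, RBFOX3, a splicing factor gene known for the neuronal marker NeuN, and CAMTA1, a calmodulin-binding transcription activator gene, also held 7 each. Their median folds were 5.22, 5.33 and 4.92, and all nearest wild-type sites lay in the same gene. DYSF, encoding the membrane repair protein dysferlin, held 6 beside 6 wild-type sites, with folds of 4.30 to 6.13. EFCAB6, encoding a protein with EF-hand calcium-binding motifs, held 6 beside 2, with folds of 3.11 to 6.87. CDH4, the R-cadherin gene, held 6 neighbouring among its 20 double-knockout sites, beside 15 wild-type sites.

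Among genes with at least 3 neighbouring sites, the 10 densest per length held 3 each. Their order is therefore that of their lengths, and the ranking picks short genes by its own arithmetic. SLC38A5, an amino acid transporter gene on chromosome X, had 3 sites over 11.7 kb (25.6 per 100 kb). Their folds were 6.93, 4.14 and 5.45 from 28, 18 and 24 reads, all nearest to 1 wild-type site 63.7 to 73.3 kb away, outside the gene. NANOS3, a germ cell gene on chromosome 19, had 3 sites over 18.7 kb (16.0 per 100 kb) with folds of 3.39, 2.83 and 8.68 from 10, 12 and 26 reads. TAS1R2, a subunit of the sweet taste receptor, had 14.95 per 100 kb, with folds of 4.53 to 5.53. CIMAP1D and MAL, which encodes a membrane protein of myelin and lymphocytes, had 10.6 per 100 kb each, with folds of 3.80 to 4.35 and 4.30 to 5.64. None of these 5 genes held a wild-type site.

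The other 5 of the densest genes held wild-type sites of their own. IFITM10, of the interferon-induced transmembrane family, had 3 neighbouring sites within 2.33 to 4.16 kb of its 1 wild-type site, with folds of 5.68, 6.33 and 3.41 and 16.5 sites per 100 kb. SYT3, a synaptotagmin gene, had 3 neighbouring and 2 wild-type sites and no shared one. THBS2, the thrombospondin 2 gene, AXL, a receptor tyrosine kinase gene, and MUC5AC, a mucin gene, had 3 each, at 6.95 to 7.88 per 100 kb. In MUC5AC the 3 lay 1.25 to 1.92 kb from 3 different wild-type sites. Sites of 1 gene share their surroundings and are not replicates.

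Gene groups were counted beside the 4.49% of all protein-coding genes that held a neighbouring site and their 1.02 neighbouring sites per Mb of gene length (0.967 to 1.08). Of the genes for the pore-forming alpha-1 subunits of calcium channels, 7 of 10 held at least 1 (70%), at 4.51 per Mb (2.25 to 8.07), with 11 in all and 3 of them in CACNA1E, at folds of 3.71 to 6.35. The same 10 genes, 2.44 Mb in all, also held 9 distant, 13 shared and 16 wild-type sites, beside 1988, 1234 and 1702 over the 1293 Mb of all protein-coding genes, so sites of each class were frequent in them. Of the adhesion G protein-coupled receptor genes, 8 of 28 held at least 1 (28.6%), at 2.99 per Mb (1.63 to 5.01). These 28 genes, 4.69 Mb in all, held 14 neighbouring, 3 distant, 8 shared and 13 wild-type sites. ADGRB1 and ADGRD1 held 3 each, with median folds of 3.53 and 4.04.

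Of the genes with a KCN symbol, potassium channels and their partners, 8 of 95 held one (8.42%), at 1.27 per Mb (0.713 to 2.10). KCNIP1, which encodes a protein that binds potassium channels, held 6 and the calcium-activated channel gene KCNMA1 held 3. Of the collagen chain genes, 6 of 44 held one (13.6%), at 1.29 per Mb (0.591 to 2.46). Of the receptor-type tyrosine phosphatase genes, 2 of 20 held one (10%), PTPRN2 with 12 and PTPRU with 3, at 1.71 per Mb (0.957 to 2.82). Of the ZNF zinc finger genes, 14 of 477 held one (2.94%), at 1.26 per Mb (0.788 to 1.90), with 5 of the 22 sites in ZNF469.

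Of the cadherin and protocadherin genes, 4 of 88 held one (4.55%), at 0.676 per Mb (0.338 to 1.21), and 6 of these 11 sites were in CDH4. Long genes at common fragile sites, which are prone to breakage under replication stress, held 18 over 31.4 Mb. That was 0.573 per Mb (0.340 to 0.905), with 12 in PTPRN2 and 4 in RBFOX1, and 4 of 20 genes held one (20%).

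Of the 22 base excision repair genes, 1 (4.55%, against 4.49% of all protein-coding genes) held neighbouring sites. OGG1, the glycosylase gene for 8-oxoguanine, held 2 of them (folds of 5.19 and 6.70, 15 and 18 reads), 2.21 and 6.97 kb from its 1 wild-type site, and 1 shared site. The group came to 4.18 per Mb, but with 2 sites its interval ran from 0.506 to 15.1. The 22 genes also held 4 distant, 6 shared and 6 wild-type sites, with 5 shared and 5 wild-type ones in NTHL1. Long genes offer more room than short ones, and larger lists hold genes of very different lengths, so the share of genes and the rate per Mb can differ in order.

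The 1 Mb window with the most neighbouring sites was on chromosome 19 (50000001 to 51000000), with 29 neighbouring, 3 distant and 9 shared double-knockout sites beside 12 wild-type sites. Genes that held them included MYH14, NAPSA, SPIB, MYBPC2, EMC10, SYT3, SHANK1 and the kallikrein genes KLK2, KLK5 and KLK6. Chromosome 8 (142000001 to 143000000) followed with 19 neighbouring, 2 distant and 10 shared sites beside 13 wild-type sites, some of them in TSNARE1 and ADGRB1. Chromosome 12 (131000001 to 132000000) held 16 beside 10 wild-type sites, with ADGRD1 the only protein-coding gene hit. Chromosome 21 (10000001 to 11000000) held 15 beside 9 wild-type sites, none in a protein-coding gene. Only 1 protein-coding gene had its midpoint in that window, and 463 kb of it lay within 100 kb of a wild-type midpoint. Chromosome 19 (39000001 to 40000000) held 14 beside 6 wild-type sites, in genes that included the interferon lambda gene IFNL1, SAMD4B and the kinase gene DYRK1B.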

How the data were processed

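Per the labels' protocols, fragmented HEK293T DNA was bound by NTHL1 protein under reducing conditions, enriched and sequenced. The tools MACS2, Bowtie2, deepTools and bedtools and the build hg38 are named per the submitters' processing notes; versions, settings, the pooling of libraries and the control are not stated there. The authors deposited 1 list per genotype, matched to a genotype by the word in its name. Each row holds a deposited score (10 times −log10 q, rounded down, in 100% of rows), a deposited fold enrichment (a ratio), and a deposited −log10 p and −log10 q; the largest q was 0.0489 in the double-knockout and 0.0450 in the wild-type list. Total depth is unknown.

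With Python 3.11.15, numpy, pandas and scipy 1.17.1, whole reads and background were recovered from fold and p, taking the fold as (reads + 1) over (background + 1) and p as the Poisson tail; all 9373 and 3688 rows matched within 0.001. This recovery and the territory computation were tested on simulated data. Territory ran between the outermost annotated genes or sites of each chromosome. Genes and start sequences came from RefSeq tables of GRCh38.p14, whose primary chromosomes have hg38 coordinates. With 1 list per genotype there are no replicates and no tests; intervals are exact binomial or Poisson at 95% and cover counting error only, since amplified reads are not independent molecules.

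The set and the gene lists were chosen with earlier results of these data known. Named genes were the 10 with the most such sites (ties by sites per kb), the 10 densest with at least 3, those holding the 10 sites of lowest q, those whose start window a site covered in full among the 10 highest folds, list genes with at least 3 (any for base excision repair), NTHL1 and NEIL1; a few that the rule named are not reported here. Alternatives varied the q threshold, distance limit, overlap, depth ratio, end region, gene overlap and clustering.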

Additional observations from a re-analysis of the deposited data

Results flagged for a closer look

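Outside chromosomes 1 to 22 and X, the double-knockout list held 24 sites that were absent from the wild-type list and lay within 100 kb of a wild-type site. They were spread over 11 other sequences and were not analysed with the set. They are given because they are a signal in rows that the comparisons did not use.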

How the results depend on the processing

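No paired analysis was possible because each genotype has 1 list and no column carries a replicate number; for the same reason no replicate could be left out. Of 44 recomputed values, 32 stayed within the interval of the reported value (the number of sites, within 1.5 times). The number of sites ran from 1801 with a limit of 50 kb to 3685 with 200 kb. With −log10 q of at least 3 in both lists the median fold was 4.80, the share near chromosome ends 26.3% and the share whose nearest wild-type site was shared 78.5%. The share near ends was 26.0% with a limit of 50 kb, 20.6% with 200 kb and 9.76% for end regions of 2 Mb, and the share with a shared nearest site was 73.8% with 200 kb. The density ratio was 3.39 without gene-free stretches over 2 Mb, an alternative chosen after seeing the data. The share reaching the wild-type limit moved most: 58.1% with −log10 q of at least 2 and 35.2% with at least 3. In these 2 settings the limit was taken anew from the filtered wild-type list. The limit thus rose with the threshold, and these shares do not refer to the limit of the main result. The share was 85.0% with the depth ratio per base pair, and 23.5% with the limit at the wild-type lower quartile, also chosen after seeing the data. Most sites rest on 14 to 20 reads, so depth limits every statement about a single site.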
